A study of Mus musculus with 52 samples.

Results

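The spleen transcriptome of male mice that lack Tug1 on both alleles (Tug1-/-) was compared with that of male wild-type mice. The comparison rests on 6 of the 52 samples of the series, 3 per genotype, and these were all the samples whose tissue label was spleen. All 6 carry the strain name Tug1_tm1.1Vlcg and the background C57BL/6J/129S6, with the remarks N3-C57BL/6J and no Neo. The mice were adult, and the labels give no age. The Tug1-/- allele carries lacZ instead of Tug1 sequence from beyond exon 1, under the Tug1 promoter. Loss of the transcript and loss of the DNA that encodes it can therefore not be told apart in these mice. The deletion is in the germline and thus present in every organ, not in the spleen alone. Polyadenylated RNA was sequenced with a kit that does not mark the strand.

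The authors' table gives, for spleen, 26391 genes, each with the mean of the wild-type samples, the mean of the Tug1-/- samples in TPM (the share of a library's transcripts that a gene supplies, corrected for gene length and scaled to a fixed total), and a mean normalized read count over both genotypes. Values of single samples were not analysed here. Every value below is thus the authors' mean for a genotype, its spread between animals was not read, no difference was tested, and whether a single animal carries a difference was not tested. The mean normalized counts summed to 42241197, and where an interval is given it is a 95% interval (exact Clopper-Pearson) that covers counting error only and belongs to the ratio of the means as deposited. All other ratios were taken after adding 0.1 TPM to both means. A gene was counted as measured when its average over both genotypes was at least 1 TPM and its mean normalized count at least 10, and as higher or lower when the ratio reached 1.5-fold. Gene lists were chosen with earlier results of these data known. A share of a list set beside that of all genes is thus description only.

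The spleen filters blood through its red pulp, where macrophages recycle iron from aged red cells, and mounts immune responses in its white pulp, which is rich in B and T cells. In mice it also remains a site of blood formation in adult life, and the red pulp holds erythroblasts, megakaryocytes and granulocyte precursors. Tug1 is a conserved long noncoding RNA that is expressed in many tissues. The labelled tissue was borne out by its markers. Cd79a, a signalling chain of the B cell receptor, had a wild-type mean of 1295 TPM, against at most 12.5 TPM in the other 6 tissues of the table. Spic, the transcription factor of red pulp macrophages, had a mean of 105 TPM against at most 0.436 TPM elsewhere, and Tlx1, a transcription factor needed for the spleen to form, had 40.3 TPM against at most 0.234 TPM. Cd3e, a T cell receptor subunit, had 38.1 TPM. Nkx2-5, a transcription factor of both spleen stroma and heart, had 7.74 TPM in spleen and 44.9 TPM in heart.

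Tug1 itself lies on chromosome 11 at positions 3639785 to 3649673 on the minus strand (mm10, annotated as antisense RNA). Its mean was 53.8 TPM in wild-type spleen and 0.0608 TPM in Tug1-/- spleen, which left 0.113% of the wild-type mean. The counting interval of this share, as a ratio with no TPM added, ran from 0.000724 to 0.00165. The genotype labels thus matched the gene they name. Ddx3y, a gene of the Y chromosome, had means of 88.0 and 86.7 TPM, and Xist, which is expressed from the inactive X chromosome of females, had 0.0343 and 0.0354 TPM, as the label of male sex calls for in both groups.

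Of the 16042 genes measured, 745 (4.64%) were at least 1.5-fold higher and 572 (3.57%) at least 1.5-fold lower in Tug1-/- spleen. At 2-fold the counts were 272 and 93. The 1.5-fold limit ran through a dense part of the distribution, since 462 measured genes lay within 0.05 of it on the log2 scale. The median log2 ratio of measured genes was -0.11, and the central part, from the lower to the upper quartile, lay between -0.24 and 0.03. Of measured genes 70.9% had a lower mean and 29.1% a higher mean in Tug1-/- spleen, whatever the size. TPM are shares of a fixed total, so genes that take up more of a library lower the shares of the rest. Relative to that median, 940 genes were higher and 319 lower, and the higher genes made up 74.7% of those past the limit, compared with 56.6% without centring. Protein-coding genes made up 568 of the higher and 313 of the lower genes.

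**Figure D1:**
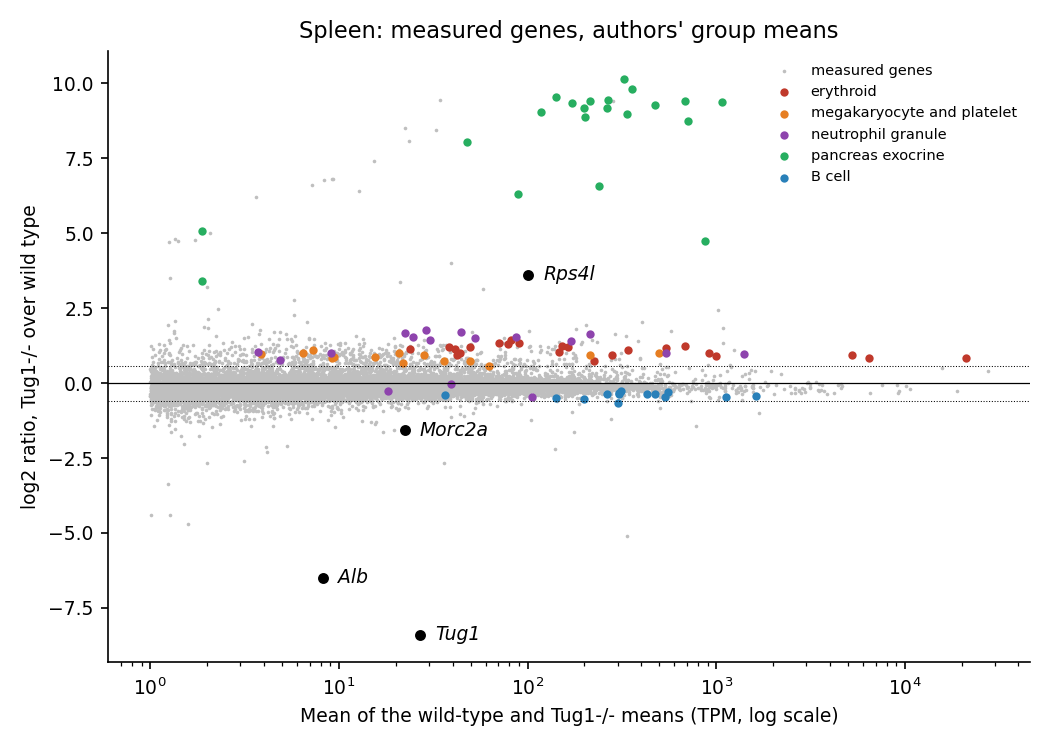
Each grey point is 1 of the 16042 measured genes, with the average of the wild-type and Tug1-/- means in TPM on a log scale across and the log2 ratio of Tug1-/- over wild type upward. Dotted lines mark 1.5-fold. Pancreas genes stand at the top, erythroid, megakaryocyte and most neutrophil genes form a band near a log2 ratio of 1, B cell genes lie below 0, and Tug1 is the lowest point at -8.39.

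The genes with the highest ratios code for proteins of the exocrine pancreas, most of them digestive enzymes. By rule, the 10 highest genes with an average of at least 5 TPM and a mean normalized count of at least 100 were Clps, Try5, Cela3b, Try4, Spink1, Pnliprp1, Pnlip, 2210010C04Rik, Ctrb1 and Sycn. Pnlip, pancreatic lipase, had a mean of 1.91 TPM in the wild type and 1357 TPM in Tug1-/- spleen. Clps, the colipase that Pnlip needs, had 0.468 and 647 TPM. Ctrb1, chymotrypsinogen, had 3.14 and 2154 TPM. Spink1, the trypsin inhibitor of pancreatic juice, was listed at 0 in wild type and at 68.8 TPM in Tug1-/- spleen. All 22 genes on the pancreas exocrine list had a higher mean in Tug1-/- spleen, against 29.1% of all measured genes. Their summed level was 86.5 TPM in the wild type and 13467 TPM in Tug1-/- spleen, or 1.35% of all transcripts. Wild-type means ranged from 0.00547 to 62.5 TPM over the list, and Tug1-/- means from 0.403 to 2154 TPM. Only 8 of the 22 reached 1 TPM in both genotypes, and most of the others passed the filter through the Tug1-/- mean alone. Ratios and ranks of genes with wild-type means near 0 depend on the 0.1 TPM added to both means.

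Cela1, an elastase, stood apart from the other enzymes. At 62.5 TPM it supplied most of the list's wild-type level, and its Tug1-/- mean was 1674 TPM. Genes of the hormone-secreting islets were near 0 in both genotypes. Of the list of islet genes, 2 of 6 were in the table, and their summed level was 0.253 TPM in the wild type and 0.210 TPM in Tug1-/- spleen. Klk1, a kallikrein protease on the plasmacytoid dendritic cell list that exocrine glands also make, had 11.8 and 105 TPM. The other 4 genes of that list had log2 ratios between -0.63 and -0.06. Pancreas lies next to the spleen in the abdomen. Whether pancreas tissue in 1 or more Tug1-/- samples underlies these values was not tested. When the list was left out and both means were rescaled to the same total, the counts at 1.5-fold were 759 higher and 517 lower.

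Genes of the red cell lineage were higher in Tug1-/- spleen without exception. Of 24 genes on the erythroid list 23 were in the table and measured, and all 23 were at least 1.5-fold higher, against 4.64% of all measured genes. The median log2 ratio was 1.14, and the range was 0.74 to 1.44. The summed level of the list was 26820 TPM in the wild type and 48972 TPM in Tug1-/- spleen. In bulk RNA, more cells of a type and more RNA per cell cannot be told apart.

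Erythroid regulators were part of the difference. Gata1, the zinc finger factor that directs red cell and megakaryocyte formation, had means of 23.3 TPM in the wild type and 53.3 TPM in Tug1-/- spleen. Klf1, which switches on adult globin and membrane genes, had 51.5 and 129 TPM (interval of the ratio 2.41 to 2.61). Epor, the erythropoietin receptor, had 28.9 and 56.0 TPM. Gfi1b, a transcriptional repressor that acts in the erythroid and megakaryocyte lineages, had 15.2 and 41.2 TPM. It is not on the list and was chosen after its values were seen. Red cell membrane genes were higher as well. Rhag, the ammonium channel of the Rh complex, had the highest ratio with 44.1 and 120 TPM, Kel, the Kell blood group protein, had 39.8 and 101 TPM, and Ermap, a blood group antigen, had 45.8 and 112 TPM. Slc4a1, the anion exchanger band 3, had 332 and 747 TPM. The 10 membrane and skeleton genes of the list lay between 2.02-fold and 2.72-fold.

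The globin genes were the most abundant transcripts of the list and had ratios at its lower end. Hbb-bs had means of 15293 and 26982 TPM, and Hba-a1 had 3614 and 6922 TPM. Over the 4 globin genes the ratio was between 1.76-fold and 1.92-fold. The pairs Hba-a1 and Hba-a2 and Hbb-bs and Hbb-bt are nearly identical, so that how reads fall between the members of a pair is uncertain. Tfrc, the transferrin receptor that brings iron into erythroblasts, had 96.05 and 196 TPM. The lowest ratio of the list belonged to Slc25a37, which imports iron into mitochondria, at 168 and 280 TPM.

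The pathway that makes haem followed. Of 9 genes of haem synthesis 8 were higher, against 4.64% of all measured genes, and none lower. Alas2, the first and erythroid-specific enzyme, had 615 and 1226 TPM. Cpox had 74.7 and 161 TPM, and Fech, which inserts iron as the last step, had 146 and 280 TPM. Alas1, the form of the first enzyme used outside the red cell lineage, was the exception with 17.1 and 14.95 TPM. Among genes chosen after their values were seen, Pklr, pyruvate kinase of red cells and liver, had 10.25 and 29.1 TPM, and Car1, a carbonic anhydrase of red cells, had 213 and 556 TPM.

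**Figure D2:**
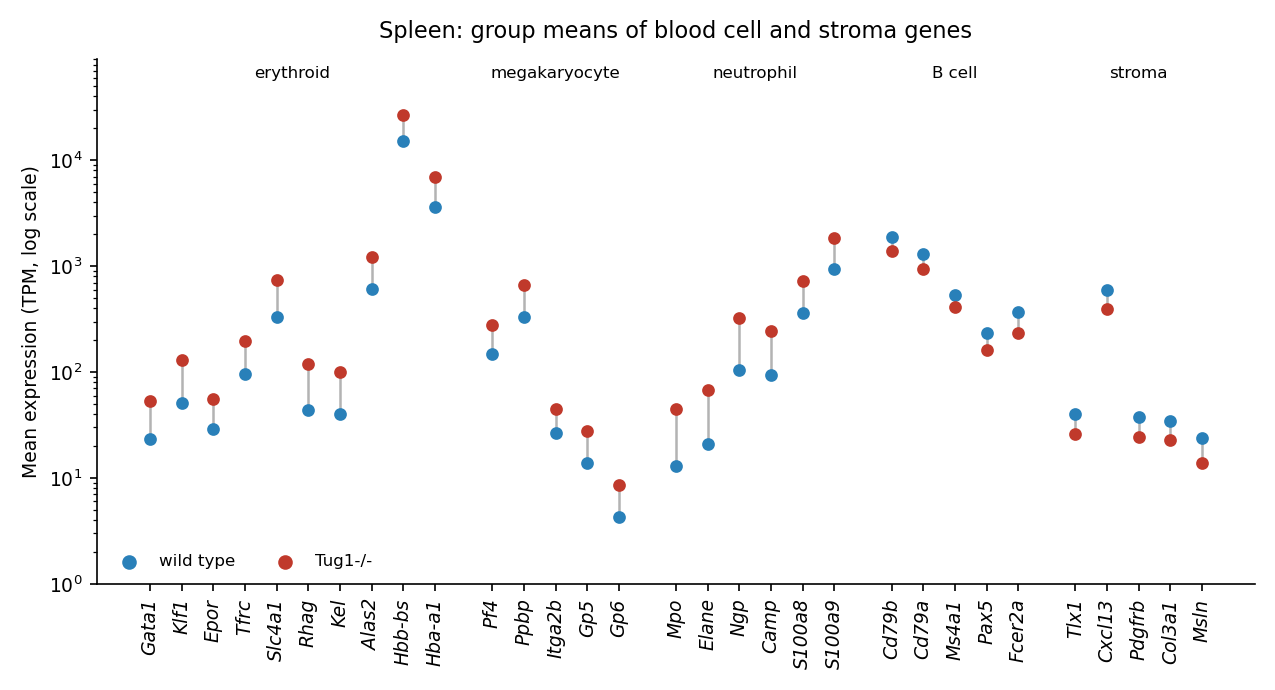
Authors' mean TPM (log scale) of selected erythroid, megakaryocyte, neutrophil, B cell and stroma genes in wild type (blue) and Tug1-/- (red), with a grey line joining the means of a gene. The red point lies above the blue one for each erythroid, megakaryocyte and neutrophil gene drawn, and below it for each B cell and stroma gene drawn. List members that are not drawn can go the other way, such as Csf3r, Mmp9 and Retnlg of the neutrophil list and Lum of the stroma list, and single animals are not shown.

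GATA1 binds short DNA motifs with GATA at the core. Promoter windows (250 bases before to 50 after the start of a gene, RefSeq, GRCm38.p6) were searched for AGATAA on both strands. The motif was in 7 of the 17 erythroid genes with a window and in 12.7% of all 27025 genes with one. The 7 were Alas2, Epb42, Epor, Hbb-bs, Kel, Rhd and Trim10. Windows of 3 of them are printed 5′ to 3′ along the gene, since these carry the motif next to genes of haem synthesis and of blood group proteins, with AGATAA or its reverse complement TTATCT in capitals.
Alas2, chrX:150547167-150547466, plus strand: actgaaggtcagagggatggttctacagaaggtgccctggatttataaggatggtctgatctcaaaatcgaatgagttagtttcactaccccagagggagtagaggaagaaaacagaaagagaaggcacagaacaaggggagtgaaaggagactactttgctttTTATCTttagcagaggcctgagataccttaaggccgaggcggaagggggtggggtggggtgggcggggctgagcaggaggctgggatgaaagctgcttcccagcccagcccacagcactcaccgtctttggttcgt
Kel, chr6:41704276-41704575, minus strand: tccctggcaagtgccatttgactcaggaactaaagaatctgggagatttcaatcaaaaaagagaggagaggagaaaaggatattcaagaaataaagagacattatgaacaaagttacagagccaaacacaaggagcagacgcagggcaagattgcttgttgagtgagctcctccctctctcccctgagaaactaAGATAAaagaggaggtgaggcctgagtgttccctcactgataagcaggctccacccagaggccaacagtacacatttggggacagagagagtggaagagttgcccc
Rhd, chr4:134864286-134864585, plus strand: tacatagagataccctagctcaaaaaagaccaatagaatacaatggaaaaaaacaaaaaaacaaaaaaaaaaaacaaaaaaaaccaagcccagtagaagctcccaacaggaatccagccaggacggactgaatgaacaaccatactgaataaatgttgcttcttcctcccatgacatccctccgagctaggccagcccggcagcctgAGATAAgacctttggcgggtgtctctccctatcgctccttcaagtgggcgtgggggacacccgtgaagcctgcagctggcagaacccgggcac

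The match in the Alas2 window is on the opposite strand to the gene, and those in Kel and Rhd are on the strand of the gene. Mean expression of these genes was 615 and 1226 TPM for Alas2, 39.8 and 101 TPM for Kel, and 90.1 and 213 TPM for Rhd, which codes for the Rh blood group antigen. A match is a description of these letters and does not show that a factor was bound.

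Megakaryocytes, which shed platelets, share progenitors with red cells. Of 14 megakaryocyte and platelet genes 13 were at least 1.5-fold higher, against 4.64% of all measured genes, and none lower, with a median log2 ratio of 0.90. The platelet chemokines Ppbp and Pf4 had 331 and 669 TPM, and 147 and 279 TPM. The subunits of the receptor for von Willebrand factor, Gp1ba, Gp1bb, Gp5 and Gp9, lay between 1.65-fold and 2.01-fold. Gp6, the collagen receptor, had 4.26 and 8.68 TPM. Itgb3, an integrin subunit that other cell types also make, was the gene below the limit, with 50.5 and 74.8 TPM.

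Granule genes of neutrophils had the highest median of all the lists apart from the pancreas genes, at a log2 ratio of 1.39. Of 17 genes 14 were higher, against 4.64% of all measured genes, and none lower by 1.5-fold. The proteases and peroxidase of the primary granules, which promyelocytes fill first, lay between 2.87-fold and 3.39-fold. Mpo, myeloperoxidase, had 13.05 and 44.5 TPM (interval of the ratio 3.25 to 3.58), Elane, neutrophil elastase, had 20.8 and 67.65 TPM, and Prtn3, proteinase 3, had 10.6 and 33.9 TPM. Genes of the later, secondary granules were also higher. Ngp had 105 and 324 TPM, Ltf, lactoferrin, had 27.5 and 78.0 TPM, and Camp, cathelicidin, had 94.0 and 246 TPM. S100a8 and S100a9, the calcium-binding proteins that fill the cytosol, had 362 and 724 TPM, and 939 and 1852 TPM. Other members of the list were on both sides of the limit. Ly6g, a surface marker, had 2.40 and 5.08 TPM, and Mmp8, neutrophil collagenase, had 6.08 and 12.1 TPM. The 3 members of the list within 1.5-fold were Csf3r, Mmp9 and Retnlg. Csf3r, the receptor for the granulocyte growth factor, had 39.6 and 38.9 TPM, Mmp9, a gelatinase of tertiary granules, had 20.01 and 16.6 TPM, and Retnlg had 123 and 88.8 TPM. This ordering by granule was drawn up after the values were seen.

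Of 6 basophil and mast cell genes 2 were higher and 4 were within 1.5-fold, against 4.64% higher among all measured genes. The basophil proteases Mcpt8 (2.49 and 7.96 TPM) and Prss34 (2.89 and 8.75 TPM) were higher. Fcer1a and Ms4a2, which code for chains of the IgE receptor, had 3.775 and 2.86 TPM, and 2.59 and 1.84 TPM. The transcription factor Gata2 had 5.97 and 6.32 TPM.

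Genes of dividing cells were higher together with those of the blood-forming lineages. All 26 genes of the cell cycle list had a higher mean in Tug1-/- spleen, against 29.1% of all measured genes. Of these 20 were at least 1.5-fold higher, against 4.64% of all measured genes, and the median log2 ratio was 0.82. The 15 genes of mitosis lay between 1.56-fold and 2.03-fold. Mki67, the standard marker of proliferation, had 117 and 233 TPM, Ccna2, cyclin A2, had 37.3 and 75.15 TPM, and Birc5, survivin, had 25.7 and 52.2 TPM. The 11 genes of DNA replication and S phase spread more widely, from 1.34-fold to 2.10-fold, and 5 of them passed 1.5-fold. Cdc6, which loads the replicative helicase, and Rrm2, a subunit of ribonucleotide reductase, were at the top with 12.65 and 26.6 TPM, and 82.0 and 170 TPM. The helicase subunits Mcm3, Mcm4, Mcm5, Mcm6 and Mcm7 and the sliding clamp Pcna had smaller ratios, down to 210 and 281 TPM for Pcna.

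Replication-dependent histone genes, whose transcripts mostly lack a poly(A) tail, had a median log2 ratio of 0.01. Of 24 measured, 2 were higher and 1 lower, near the shares of all measured genes (4.64% and 3.57%). Ezh2, the methyltransferase of Polycomb complex 2, had 22.0 and 31.9 TPM. None of the 17 Polycomb genes passed 1.5-fold in either direction, against the same shares of all measured genes.

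**Figure D3:**
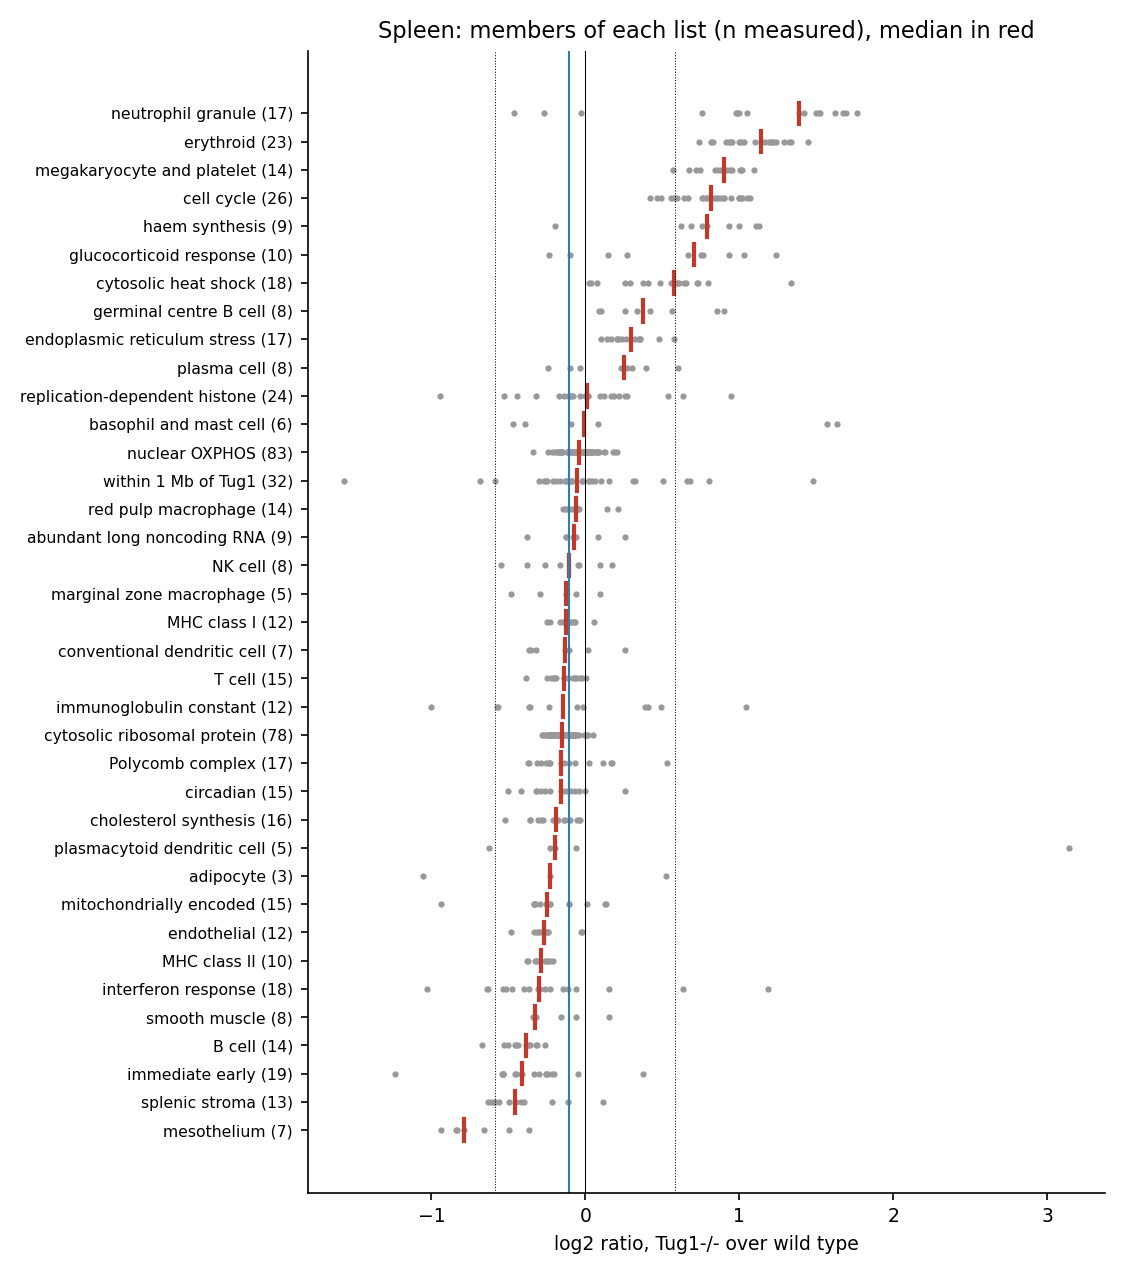
Log2 ratio of Tug1-/- over wild type for the measured members of each list (grey points), with the list's median in red and the number measured in brackets. The blue line marks the median of all measured genes (-0.11) and dotted lines 1.5-fold. Neutrophil granule (1.39), erythroid (1.14), megakaryocyte (0.90) and cell cycle (0.82) genes have the highest medians drawn, and mesothelium (-0.79) the lowest. The pancreas, liver and immunoglobulin variable genes are not drawn.

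Most genes of the lymphoid white pulp lay within 1.5-fold, as 14725 of the 16042 measured genes did. All 14 B cell genes had a lower mean in Tug1-/- spleen, as 70.9% of all measured genes did, with log2 ratios from -0.67 to -0.26 and a median of -0.38, and 1 of them, Fcer2a, passed 1.5-fold, against 3.57% of all measured genes. Fcer2a (CD23), which marks mature follicular B cells, had 371 and 233 TPM. Pax5, the factor that holds B cell identity, had 234.5 and 163 TPM, Cd79a had 1295 and 947 TPM, and Ms4a1 (CD20) had 533 and 415 TPM. The 10 genes of MHC class II presentation, which B cells express strongly, all had a lower mean, as 70.9% of all measured genes did. Their log2 ratios ran from -0.38 to -0.21 and none passed 1.5-fold. Cd74, the invariant chain, had 11395 and 9850 TPM. T cell genes lay closer to the median of all genes. Of 15 T cell genes none passed 1.5-fold, the median log2 ratio was -0.14, and Cd3e had 38.1 and 38.2 TPM. Of 8 NK cell genes none passed, and Gzma, granzyme A, had the lowest ratio with 84.1 and 57.5 TPM.

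In the germinal centre B cells mutate their antibody genes. All 8 of its genes had a higher mean in Tug1-/- spleen, against 29.1% of all measured genes. Of these 2 were past 1.5-fold and 6 within it, against 4.64% higher among all measured genes. Rgs13, a regulator of G protein signalling, had 9.60 and 18.04 TPM. Bcl6, the master regulator of the germinal centre, had 30.95 and 33.3 TPM. Among 8 plasma cell genes Derl3, of the protein export machinery, was higher with 23.8 and 36.1 TPM, while Xbp1 and Sdc1 had 153 and 179 TPM, and 20.1 and 18.8 TPM. Immunoglobulin genes had no common direction. Of the 12 constant genes, Ighe was higher (1.49 and 3.18 TPM) and Iglc3 was lower (2236 and 1117 TPM). Ighm, the heavy chain of IgM, had 13038 and 18346 TPM, Ighd, that of IgD, had 1632 and 1103 TPM, and Igha, that of IgA, had 1220 and 819.5 TPM. Iglc3 and Iglc2 are near copies, and the split of reads between them is uncertain. Of 221 measured variable segments 61 were higher and 28 lower, against 4.64% and 3.57% of all measured genes, and their summed level was 50008 and 60067 TPM.

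Resident macrophage genes were close to equal in the genotypes. Of 14 red pulp macrophage genes none passed 1.5-fold, where 4.64% of all measured genes were higher and 3.57% lower, and the log2 ratios lay between -0.14 and 0.22. Hmox1, haem oxygenase, had 1069 and 1028 TPM, Slc40a1, the iron exporter ferroportin, had 262 and 241 TPM, and Spic had 105 and 100.4 TPM. Marginal zone macrophage and conventional dendritic cell genes had no member past the limit either.

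Some genes of the stromal frame and covering of the spleen were lower. Of 13 stroma genes 4 were at least 1.5-fold lower, none was higher and 9 were within the limit, against 3.57% lower among all measured genes, and the median log2 ratio was -0.45. The 4 were Tlx1 (40.3 and 25.97 TPM), Pdgfrb, the platelet-derived growth factor receptor of fibroblasts and pericytes (37.35 and 24.4 TPM), Col3a1, a fibrillar collagen (34.5 and 22.85 TPM), and Cxcl13, the chemokine that draws B cells into follicles (592 and 395 TPM). Nkx2-5 had 7.74 and 5.63 TPM. The lowest log2 ratio of the list was -0.63, near the limit of -0.585. After centring on the median of all measured genes (-0.11) the 4 genes would lie within 1.5-fold. Of 7 genes of the mesothelium, the epithelium that covers the organ, 5 were lower, against the same 3.57%. Msln, mesothelin, had 23.9 and 13.8 TPM, Upk3b had 15.9 and 8.85 TPM, and Krt19, a keratin, had 4.66 and 2.39 TPM. The 12 endothelial genes all had a lower mean, as 70.9% of all measured genes did, with log2 ratios between -0.48 and -0.02. None passed 1.5-fold, where 4.64% of all measured genes were higher and 3.57% lower. Kdr, the receptor for vascular endothelial growth factor, had 19.8 and 14.1 TPM. Of 8 smooth muscle genes none passed, and Acta2, smooth muscle actin, had 161 and 128 TPM.

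Heat shock chaperones, most of them of the cytosol, were higher in part. All 18 heat shock genes had a higher mean in Tug1-/- spleen, against 29.1% of all measured genes. Of these 9 were at least 1.5-fold higher, against 4.64% of all measured genes, and the median log2 ratio was 0.58. Hsph1, a large partner of the HSP70 chaperones, had 42.2 and 107 TPM (interval of the ratio 2.48 to 2.58). Stip1, which links HSP70 to HSP90, had 169 and 294 TPM. Hspa8, the constitutive HSP70, and Hsp90aa1 had 719 and 1088 TPM, and 244.6 and 374 TPM. Members that classically respond to stress were on both sides of the limit. Hspa1a had 2.185 and 3.67 TPM, Hspa1b had 6.31 and 9.58 TPM, while Dnajb1 had 98.8 and 102 TPM, and Hspb1 had 21.0 and 25.8 TPM. Genes of stress in the endoplasmic reticulum had smaller ratios in the same direction. All 17 had a higher mean, against 29.1% of all measured genes. None passed 1.5-fold, against 4.64% higher among all measured genes, and Hspa5 (BiP) had 426 and 545.5 TPM.

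HSF1, the factor that drives chaperone genes, binds the heat shock element. It was searched in the same windows as GAA, then TTC, then GAA, or TTC, then GAA, then TTC, with 2 spare bases between triplets, so that both strands were covered. It was in 0.662% of all 27025 genes with a window and in 4 of the 15 heat shock genes with one, Chordc1, Hspd1, Hspe1 and Hsph1. Windows of the gene with the highest ratio of the list and of Chordc1, in which 3 elements overlap, are printed 5′ to 3′ with the elements in capitals.
Hsph1, chr5:149636287-149636586, minus strand: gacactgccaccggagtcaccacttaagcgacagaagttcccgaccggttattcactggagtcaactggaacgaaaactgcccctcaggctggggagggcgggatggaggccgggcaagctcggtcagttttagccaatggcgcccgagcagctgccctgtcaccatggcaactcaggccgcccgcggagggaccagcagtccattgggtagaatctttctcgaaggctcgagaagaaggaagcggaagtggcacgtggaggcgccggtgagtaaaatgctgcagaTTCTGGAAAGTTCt
Chordc1, chr9:18292017-18292316, plus strand: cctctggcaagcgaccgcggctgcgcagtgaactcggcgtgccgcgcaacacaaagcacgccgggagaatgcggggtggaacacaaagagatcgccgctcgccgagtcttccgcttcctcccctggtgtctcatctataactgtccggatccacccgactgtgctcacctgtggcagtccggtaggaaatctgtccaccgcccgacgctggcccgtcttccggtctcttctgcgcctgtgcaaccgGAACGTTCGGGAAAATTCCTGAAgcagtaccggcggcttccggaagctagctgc

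The element of Hsph1 lies in the bases after the start of the gene. Of the overlapping elements of Chordc1 the first lies across the start and the others after it. Chordc1, a cochaperone of HSP90, had means of 39.1 and 61.6 TPM. Hspd1, the mitochondrial chaperonin, had 174 and 255.5 TPM and stayed just under 1.5-fold, and Hspe1, its partner, had 176 and 210 TPM, so genes with the element were on both sides of the limit.

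Genes that glucocorticoid hormones induce were also higher in part, 6 of 10 and none lower, against 4.64% higher among all measured genes, with a median log2 ratio of 0.71. Fkbp5, a cochaperone of the glucocorticoid receptor, had 28.9 and 55.3 TPM, Pdk4, a kinase that spares glucose, had 14.8 and 30.3 TPM, and the metallothionein Mt2 had 11.8 and 28.0 TPM. Tsc22d3 (GILZ) and Sgk1, which the same hormones induce, had 228.7 and 253.0 TPM, and 37.6 and 35.2 TPM. Of 19 immediate early genes 18 were within 1.5-fold, with a median log2 ratio of -0.41. The other was Fos, with 12.4 and 5.19 TPM, and the share of lower genes was thus near the 3.57% of all measured genes. Of the 19 genes 18 had a lower mean, against 70.9% of all measured genes. Egr1 had 21.7 and 16.3 TPM, and Myc, the exception, had 59.98 and 77.7 TPM. Of 18 interferon-induced genes 2 were higher and 3 lower, against 4.64% and 3.57% of all measured genes. Rsad2 (53.9 and 123 TPM) and Isg15 (112 and 173 TPM) were higher, while Ifit1, Ifit2 and Ifit3 were lower, the last with 58.8 and 28.8 TPM, and the median log2 ratio of the list was -0.30.

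Housekeeping groups stayed near the median of all genes. Of 83 nuclear genes of oxidative phosphorylation and 78 cytosolic ribosomal protein genes none passed 1.5-fold, with median log2 ratios of -0.04 and -0.15. Among all measured genes 4.64% were higher and 3.57% lower. No gene passed 1.5-fold either among 16 genes of cholesterol synthesis, 15 circadian genes and 12 genes of MHC class I. Of the 15 mitochondrially encoded genes 1, a transfer RNA, was lower, near the 3.57% of all measured genes. Of 9 other abundant long noncoding RNAs none passed, and Malat1 had the lowest ratio with 314.6 and 242 TPM.

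Of the 10 genes with the lowest ratios by the same rule, 1 was Tug1 itself and 1 its neighbour Morc2a, described with the window around Tug1. Alb, serum albumin of the liver, had 16.4 TPM in the wild type and 0.0843 TPM in Tug1-/- spleen. Klra17, a receptor of the Ly49 family, had 26.02 and 8.31 TPM, and Gdf6, a growth factor of the BMP family, had 29.5 and 9.85 TPM. Pcdh18, a protocadherin, had 14.1 and 5.04 TPM. Il5ra, the interleukin-5 receptor, had 22.4 and 8.63 TPM, Il22ra2, a soluble antagonist of interleukin-22, had 21.05 and 8.501 TPM, Crisp3, a secreted cysteine-rich protein, had 22.35 and 9.01 TPM, and Cd207, langerin of dendritic cells, had 18.7 and 7.78 TPM.

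Besides pancreas and blood cell genes, an annotated pseudogene stood out. Rps4l, a processed copy of the ribosomal protein gene Rps4x on chromosome 6 (positions 148354656 to 148355598, plus strand, mm10), had 15.2 TPM in the wild type and 187 TPM in Tug1-/- spleen, a ratio of 12.2. Rps4x, the parent gene, had 2998 and 2668 TPM. Smarca5-ps, a processed copy on chromosome 4 of the chromatin remodeller gene Smarca5, had 0.3095 and 3.69 TPM, while Smarca5 had 49.9 TPM in both. Uniquely mapped reads were counted, and how reads fall between a gene and its copy is uncertain. Whether strain sequence differs between the groups at these genes was not tested.

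Deletion of a locus can change the genes that lie next to it. With Tug1 left out, 51 genes of the table had their transcription start within 1 Mb of that of Tug1, and 32 of these were measured. In this window 4 genes (12.5%) were at least 1.5-fold higher, compared with 4.64% of all measured genes, and 2 (6.25%) were lower, compared with 3.57%. These counts were not tested. Morc2a, a chromatin-silencing ATPase that is transcribed away from Tug1, had the lowest ratio, with 33.5 TPM in the wild type and 11.2 TPM in Tug1-/- spleen (interval of the ratio 0.321 to 0.350). The annotated models of the pair overlap by 180 bases, and since the libraries do not mark strand, reads from that stretch cannot be assigned to either gene. Rnf185, a ubiquitin ligase of the endoplasmic reticulum that starts 197 kb on the other side, had 32.3 and 56.6 TPM. The noncoding 8430429K09Rik starts 2 bases from Rnf185 on the opposite strand and had 3.01 and 4.82 TPM.

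Selenom, a selenoprotein gene between Tug1 and Rnf185, had 30.1 and 42.75 TPM and stayed below 1.5-fold, and Smtn, which codes for smoothelin and lies closer to Tug1, had 13.2 and 11.6 TPM. On the side of Morc2a, Sec14l2, a lipid-binding protein gene that starts 474 kb from Tug1, had the highest ratio of the window, with 7.04 and 19.8 TPM. Mtfp1, of mitochondrial fission, had 6.26 and 10.1 TPM, and Lif, a cytokine of the interleukin-6 family, had 1.54 and 0.916 TPM. The other 26 measured genes of the window lay within 1.5-fold, and the median log2 ratio of all 32 was -0.06.

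**Figure D4:**
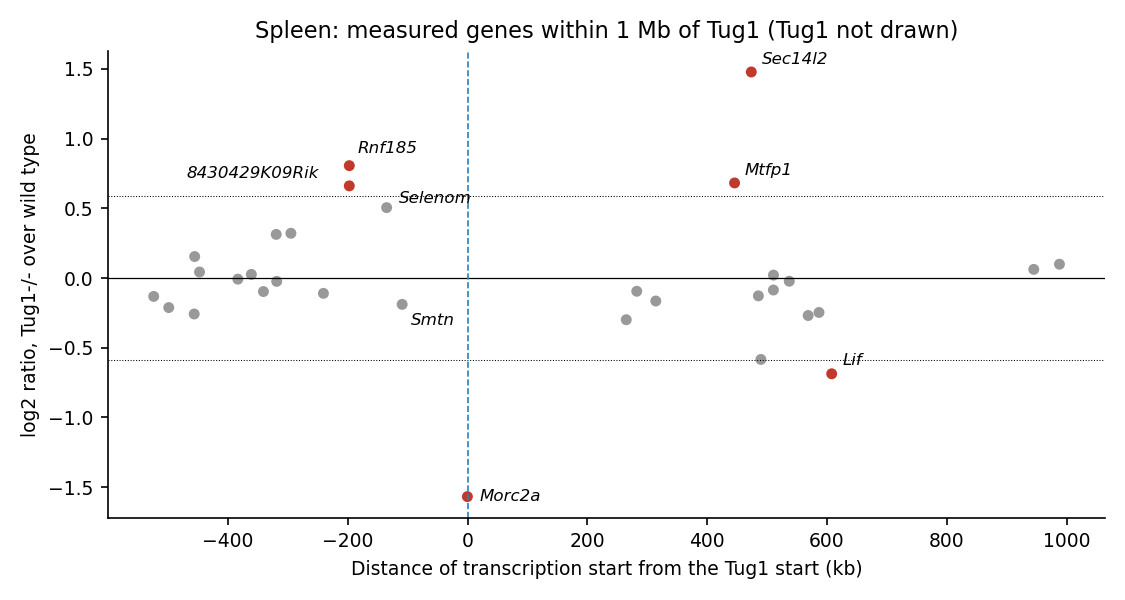
Measured genes within 1 Mb of Tug1, with the distance of their transcription start from that of Tug1 in kb across and the log2 ratio of Tug1-/- over wild type upward. Genes at least 1.5-fold apart are red and dotted lines mark 1.5-fold. Morc2a lies lowest at -1.57 beside the Tug1 start (dashed line), Rnf185 and 8430429K09Rik lie together at -197 kb, and Sec14l2 is highest at 1.48.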

How the data were processed

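Libraries were made from polyadenylated RNA of snap frozen spleen with the TruSeq RNA Sample Preparation Kit v2. The authors aligned the reads with STAR to mm10, took unique counts from featureCounts, set aside genes below 3 reads in all replicates and fitted DESeq2. The submitters' notes also name CASAVA 1.8.2. The deposited table stacks 7 tissues. Its TPM means per genotype were handled as a score, since their sum over the stacked tissues is not that of a single library, and the authors' mean normalized count is a deposited signal over all libraries of a tissue. The deposited fold changes, standard errors, statistics, p-values, adjusted p-values and significance calls of the authors' own comparison were not used. Because the columns used hold group means, no test, SD or sample depth could be computed here, and the planned description of ratios took their place.

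Ratios were computed with a pseudocount of 0.1 TPM on the log2(TPM + 0.1) scale, so that they understate differences of low genes. The counting interval takes 6 times the mean normalized count as reads, split by the TPM ratio. Of columns with values of single samples, 0 were left unmapped. The 39 gene lists and the members were chosen with earlier results of these data known. Named are Tug1, window genes past 1.5-fold, the 10 highest and 10 lowest genes with at least 5 TPM and a mean normalized count of at least 100 (variable segments of immunoglobulins left out), up to 4 members of lists that stand apart, up to 2 of other lists, and tissue-defining genes; some genes of these lists are not reported here by name, and other genes, further list members and groupings by role were chosen after their values were seen. Alternatives were other pseudocounts, filters, limits, scalings and gene types. Steps were tested on simulated data, in Python 3.11.15 with numpy 2.4.6, pandas 2.3.3, scipy 1.17.1 and matplotlib 3.10.9.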

Additional observations from a re-analysis of the deposited data

How the results depend on the processing

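Each of 10 alternatives was applied alone. Over 38 lists with at least 3 measured genes, 366 of 371 medians stayed within 0.2 log2 units of the reported value and on the same side of 1.5-fold, and none that was past it changed sign. Part of this agreement was set in advance. The 2-fold limit cannot change a median, and centring moves every median by the same 0.11, less than the 0.2 allowed. The median of the heat shock list, at 0.58, passed 1.5-fold when centred on the median (0.68), rescaled without immunoglobulin, haemoglobin and mitochondrial genes (0.63) or rescaled without pancreas genes (0.60). The basophil and mast cell median became 0.82 with a mean of at least 5 TPM. The median of measured pancreas genes, most of which passed the filter through the Tug1-/- mean alone, was 9.17 and became 7.96 with a pseudocount of 1 TPM. Tug1 had a log2 ratio of -5.69 with a pseudocount of 1 TPM and -9.57 with 0.01 TPM. Higher genes numbered 1555 at a minimum of 0.1 TPM with no minimum count and 272 at 2-fold. Lower genes, many of them at low levels, numbered 257 with a pseudocount of 1 TPM, 189 at a mean of at least 5 TPM, 2032 at a minimum of 0.1 TPM, 254 at a mean normalized count of at least 100, 93 at 2-fold, 319 after centring and 313 among protein-coding genes. Genes past the limit near Tug1 numbered 10 at the minimum of 0.1 TPM and 2 at 2-fold. The share of higher genes among those past the limit was 56.6%, and between 43.4% and 74.7% over the alternatives. The rescaling without pancreas genes was chosen after seeing the data. No paired analysis was possible because the tables read here hold group means, and for the same reason leaving out a replicate and a refit with DESeq2 were not run. The spread between animals, and any difference carried by a single animal, lie beyond these means.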

Other observations

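Liver transcripts were found at low levels in wild-type spleen and at lower levels in Tug1-/- spleen. Of 12 genes for plasma proteins made by the liver, a list written after values were seen, 5 were measured. Summed over the 12, the level was 36.6 TPM in the wild type and 2.09 TPM in Tug1-/- spleen. Beside Alb, Apoa2 had 7.003 and 1.35 TPM, Apoa1 had 2.53 and 0.0234 TPM, Ttr, transthyretin, had 2.35 and 0.137 TPM, and Serpina3k had 2.01 TPM in the wild type and was listed at 0 in Tug1-/- spleen. All but Apoa2 had a Tug1-/- mean under 1 TPM and so passed the filter through their wild-type means. Adipoq, a hormone of fat cells, had 1.69 and 0.762 TPM, and Fabp4, a fatty acid carrier of fat cells and endothelium, had 7.03 and 10.2 TPM. Which of the samples hold transcripts of liver or fat was not tested.

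Of the other genes with the highest ratios among those with at least 5 TPM in wild type, C1qtnf12, a secreted hormone-like protein, had 23.55 and 77.6 TPM. Fcnb, a ficolin of myeloid cells, had 6.16 and 18.5 TPM. Apol11b, of the apolipoprotein L family, had 39.1 and 111 TPM. In the plasmacytoid dendritic cell list Pacsin1 had 15.8 and 10.2 TPM.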
